A study of Mus musculus with 9 samples.

Results

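The nuclear factor I family comprises 4 genes in the mouse, Nfia, Nfib, Nfic and Nfix. They were taken by symbol from the 37980 genes of an RNA-seq table of myeloid progenitors, and 3 of them were among the 11987 genes with enough signal to be tested. The table covers 4 samples of NA MPs and 5 of WT MPs, which were Lin−c-kit+Sca1− cells sorted from the bone marrow of C57BL/6 mice, by the labels 3 months after transplantation. NA MPs carried the Nup98-Hoxa10hd fusion gene (NA), were Tdtomato+ and derived from NA MPPs (multipotent progenitors) given to the recipients. WT MPs were CD45.2+ cells of mice that had received WT MPPs at the same time. In both groups, recipients were irradiated and MPPs were given together with helper bone marrow cells. The fusion was expressed from the Rosa26 locus after removal of a stop cassette by Vav-Cre, which is active throughout the blood lineage. The methods of the study give a later month for the sort than the labels do. They also describe the recipients as CD45.2+, and elsewhere the study tracked donor cells of the WT group by a different CD45 allele. On that marking, CD45.2+ WT MPs would not derive from the WT MPPs. The sources disagree, so the origin of WT MPs (donor, helper or recipient) is not settled. The labels do not say whether the samples of a group came from separate mice, and p-values below measure only the spread between these samples.

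Nuclear factor I (NFI) proteins are transcription factors that bind DNA as dimers through a domain near their N terminus, which is much alike in all members, while the remainder of the protein differs. They recognise a palindrome whose arms read TTGGC and GCCAA. In haematopoiesis, NFIA is known to favour the erythroid over the granulocytic fate of progenitors and to be repressed by the microRNA miR-223, whereas NFIX is known for supporting the survival of haematopoietic stem and progenitor cells.

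The members lie on 3 chromosomes in mouse build GRCm38 (GENCODE M21), the same build as the mm10 named in the submitters' processing notes. Nfia (ENSMUSG00000028565) spans chr4:97772734-98118874 on the plus strand. Nfib (ENSMUSG00000008575) lies on the same chromosome at chr4:82290173-82705750, on the minus strand. Nfic (ENSMUSG00000055053) occupies chr10:81396186-81455635 and Nfix (ENSMUSG00000001911) chr8:84699876-84800344, both on the minus strand. Nfia and Nfib stretch over 346.1 and 415.6 kb, against 59.5 kb for Nfic and 100.5 kb for Nfix. In all 4 genes the second coding exon, which encodes part of the DNA-binding domain, is 532 bases long. The exon is identical in all members at 351 of its 532 positions, and identity between pairs ran from 75.8% (Nfia and Nfic) to 82% (Nfic and Nfix). A window of 60 bases from base 53 of this exon, 48 of them identical in every member, shows how alike the transcripts are whose reads had to be told apart. The sequences are from the GENCODE transcripts, 5′ to 3′ on the coding strand, and capitals mark bases that differ from Nfia.
Nfia, chr4:97783134-97783193, plus strand: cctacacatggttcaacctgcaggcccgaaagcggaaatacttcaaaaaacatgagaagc
Nfib, chr4:82498658-82498717, minus strand: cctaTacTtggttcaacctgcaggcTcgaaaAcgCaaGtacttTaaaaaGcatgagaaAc
Nfic, chr10:81420687-81420746, minus strand: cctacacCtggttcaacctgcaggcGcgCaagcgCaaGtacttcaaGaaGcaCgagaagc
Nfix, chr8:84772204-84772263, minus strand: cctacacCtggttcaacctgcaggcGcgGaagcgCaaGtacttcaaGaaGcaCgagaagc

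Compared with Nfia, the window differs at 9 bases in Nfib and at 8 bases in Nfic and in Nfix. The longest run of identical bases in the exon was 32, between Nfic and Nfix. Over all annotated transcripts of the family, 0 stretches of 50 bases were shared between members. Reads of that length or longer can therefore be placed on a member, and only 8 of 7477 such stretches of Nfix (0.107%) also occur in genes outside the family.

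Values in the deposited table are called normalized counts here. The file presents them as RSEM counts without scaling, but its low values are whole multiples of a step that differs between samples. 1 read was worth between 0.827 and 1.2 in NA MPs and between 0.856 and 1.08 in WT MPs, so the counts had already been divided by a size factor for each sample. On that reading, 5557718 to 8106140 reads lay behind an NA MP sample and 6141708 to 7751467 behind a WT MP sample. Hoxa10 and Nup98, which make up the fusion, served to check the labels. Hoxa10 had 129 ± 17.7 normalized counts in NA MPs (SD, n = 4) and 8.05 ± 2.57 in WT MPs (SD, n = 5), and Nup98 had 956 ± 81.8 and 599 ± 29.9, with every NA MP sample above every WT MP sample for both. Reads of the fusion cannot be told apart from those of these genes. The progenitor markers Kit (2960 ± 133 in NA MPs and 3040 ± 42.4 in WT MPs) and Mpo (108000 ± 4470 and 104000 ± 1780) were abundant in both groups. They belong to a list of 10 myeloid progenitor genes, of which 4 were higher and 1 was lower in NA MPs at an adjusted p under 0.05 from limma. With each sample's trend on GC content and length removed, 3 were higher and 3 lower. Over all tested genes, 34.3% passed this threshold.

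Nfia was lower in NA MPs than in WT MPs. The 4 NA MP samples had 60.02, 56.6, 46.8 and 70.3 normalized counts, and the 5 WT MP samples had 106, 101, 84.6, 99.1 and 99.7. All NA MP samples lay below all WT MP samples, and the highest NA MP sample and the lowest WT MP sample were replicate 4 and replicate 3. The mean was 58.4 ± 9.69 in NA MPs (SD, n = 4) and 98.0 ± 7.96 in WT MPs (SD, n = 5), a ratio of 0.596. The log2 fold change, on the scale of log2(normalized count + 1), was -0.75 with a standard error of 0.12 and a 95% confidence interval from -0.98 to -0.51 (adjusted p = 1.57e-06 from limma over all tested genes). Nfia rested on 42 to 85 reads in an NA MP sample and 83 to 118 in a WT MP sample. Counting error alone gives a coefficient of variation of 13.1% and 9.95% at these depths, against 16.6% and 8.12% observed. Because these are bulk samples, fewer cells that express a gene and less RNA of it per cell cannot be told apart.

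Nfix fell as well, by less than Nfia. Its normalized counts were 503, 452, 499 and 489 in NA MPs and 551, 572, 555, 550 and 585 in WT MPs. The groups did not overlap, and the lowest value was that of NA MP replicate 2. The mean fell from 563 ± 15.1 (SD, n = 5) to 486 ± 23.2 (SD, n = 4), a log2 fold change of -0.21 with a standard error of 0.047 and a confidence interval from -0.31 to -0.12 (adjusted p = 0.00034 from limma).

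Nfic, the most highly expressed member, did not pass the threshold. Normalized counts were 798, 811, 745 and 753 in NA MPs and 684, 768, 806, 722 and 725 in WT MPs, and the groups overlapped. The means were 777 ± 32.7 (SD, n = 4) and 741 ± 46.9 (SD, n = 5). The log2 fold change was 0.07 with a confidence interval from -0.02 to 0.16 (adjusted p = 0.241 from limma), and with each sample's trend on GC content and length removed it was -0.01, so no direction is given for this gene.

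Nfib was at or under 3 reads in every sample. It had 0, 1, 0 and 2 reads in NA MPs and 0, 1, 1, 0 and 0 in WT MPs, where 3 reads correspond to between 2.48 and 3.6 normalized counts. No fold change is given for Nfib, and a difference was not detectable at this depth.

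**Figure D1:**
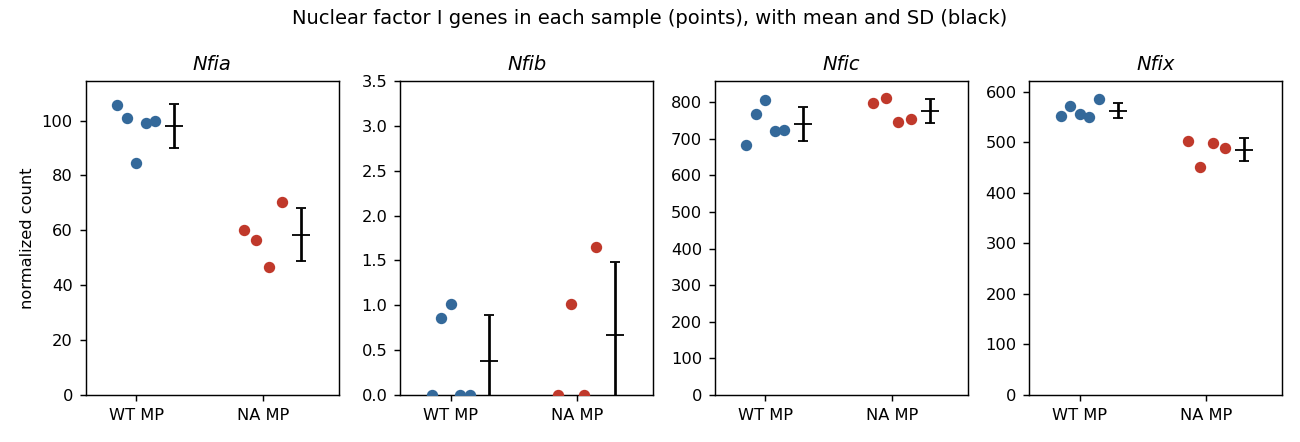
Normalized counts (vertical axes, each from 0 and on its own scale) of the 4 nuclear factor I genes in WT MPs (blue points, 5 samples) and NA MPs (red points, 4 samples), with the mean and SD in black. The groups are apart for Nfia (46.8 to 70.3 against 84.6 to 106) and Nfix (452 to 503 against 550 to 585), overlap for Nfic, and reach no more than 1.65 for Nfib.

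Of the 3 members tested, 2 were lower in NA MPs and 0 were higher at an adjusted p under 0.05. Over all 11987 tested genes, 34.3% passed the threshold, 17.3% lower and 16.9% higher, and 26.3% had groups that did not overlap, so a changed gene was common in this comparison and a count of 2 of 3 by itself does not set the family apart. With GC content and length removed, the higher share of the genes past the threshold went from 49.4% to 38.5%, and Nfia and Nfix stayed lower. By size, the change of Nfia was larger than usual. The median absolute log2 fold change of all tested genes was 0.123, and 2.22% of them fell at least as far as Nfia, 256 of which passed the threshold. Among the genes called lower, 1141 fell at least as far as Nfix.

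Because all members were measured in each sample, the change of a member can be taken relative to another member, which does not depend on the scaling between samples. Differences of log2 CPM (counts scaled to the total of the sample) within a sample were compared for the 3 pairs among Nfia, Nfic and Nfix. Nfia minus Nfic was -3.7 ± 0.23 in NA MPs (SD, n = 4) and -2.9 ± 0.20 in WT MPs (SD, n = 5). The shift between the groups was -0.81. For Nfia minus Nfix it was -0.52 and for Nfic minus Nfix 0.28. In each pair the groups did not overlap. The p-value was 0.0159 in an exact two-sided permutation test, the smallest that 4 against 5 samples allow. Benjamini-Hochberg adjustment over the 3 pairs left it the same, as it must for equal p-values. Each difference follows from the other pairs, so the 3 are not separate results. The 3 members therefore moved by unequal amounts between WT MPs and NA MPs.

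Levels of different genes were compared per kilobase of exon. On that scale the order was Nfic, Nfix, Nfia and Nfib in all 9 samples. Nfic stood at 117 ± 4.93 normalized counts per kb in NA MPs (SD, n = 4) and 112 ± 7.07 in WT MPs (SD, n = 5), a level above that of 73.0% and 71.7% of the 11644 tested genes with a known length. Nfix stood at 66.1 ± 3.16 and 76.6 ± 2.06 per kb, above 56.0% and 60.4% of these genes. Nfia, at 5.36 ± 0.890 and 9.0 ± 0.731 per kb, was above only 7.32% and 13.2% of them. Neighbours in this order were separated by more than their spread in both groups. Nfia was therefore the member that changed most and the least expressed of those tested.

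The summed level of the 4 genes per kb was 189 ± 4.24 in NA MPs, with a range of 184 to 194, and 197 ± 7.04 in WT MPs, with a range of 188 to 205, and these ranges overlapped. The make-up of this sum differed between the groups more clearly than its size. Nfia took 2.84% ± 0.466 of it in NA MPs and 4.57% ± 0.498 in WT MPs, Nfix took 35.0% ± 1.80 and 38.8% ± 1.34, and Nfic took 62.1% ± 1.80 and 56.6% ± 1.76 (SD, n = 4 and 5). None of the 3 shares overlapped between the groups, although the highest NA MP share of Nfix (36.78%, replicate 3) and the lowest WT MP share (36.86%, also replicate 3) nearly met. Shares of a whole are not independent, and the higher share of Nfic goes with the lower levels of Nfia and Nfix.

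**Figure D2:**
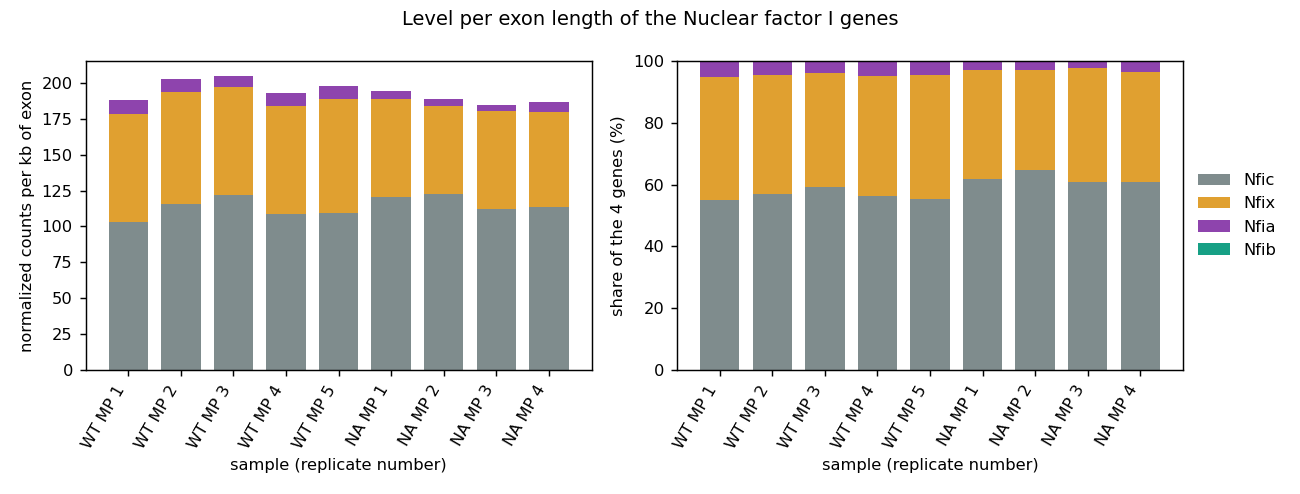
Left, normalized counts per kb of exon (vertical axis, from 0) of Nfic (grey), Nfix (yellow), Nfia (purple) and Nfib (green, too low to be seen), stacked for each of the 5 WT MP and 4 NA MP samples. Right, the same values as percentages of their sum. The Nfia band takes 2.33% to 3.46% in NA MPs and 3.79% to 5.17% in WT MPs.

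Genes that textbook and published work connects with NFI proteins in blood cells were followed as a list of 12, of which 10 were tested. Of these, 3 were higher, 2 were lower and 5 were not called, and the median log2 fold change was 0.01, beside -0.0081 over all tested genes. The higher and lower counts were 2 and 4 with GC content and length removed. Nfia itself is known to be opposed by C/EBP-alpha in granulocytic cells. Cebpa, the gene of that factor, had 1340 ± 68.9 and 1390 ± 46.2 normalized counts in NA MPs and WT MPs and a log2 fold change of -0.05 (adjusted p = 0.254 from limma). Spi1, which encodes the myeloid factor PU.1, was 1440 ± 57.1 against 1300 ± 17.5, a log2 fold change of 0.14 (adjusted p = 0.000929 from limma). With GC content and length removed, the value of Spi1 was 0.01 and no longer passed the threshold, whereas Cebpa, at -0.21, did (adjusted p = 1.15e-06 from limma). The colony-stimulating factor receptors Csf3r (-0.05) and Csf1r (0.07) did not pass the threshold. Csf3r, at -0.12, passed it with GC content and length removed, and Csf1r, at 0.11, without NA MP replicate 1.

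The other 2 genes of this list that were higher were Erg and Mecom. Erg, an ETS factor of stem cells, rose from 436 ± 16.2 to 613 ± 19.1 (log2 fold change 0.49). Mecom, which encodes the stem cell factor EVI1, rose from 16.3 ± 3.03 to 161 ± 12.0 (3.24). Mecom shares exon sequence with Mecomos, and whether counting used strand is not given in the sources used here, so its count is uncertain.

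Among globin genes, Hba-a1 was lower, with 18.3 ± 2.26 against 29.1 ± 7.26 normalized counts (log2 fold change -0.62, adjusted p = 0.0157 from limma), and it lost the threshold without NA MP replicate 2 (adjusted p = 0.0547 from limma) or without WT MP replicate 2 (0.0795). Hbb-bt (-0.57) and Hbb-bs (0.48) did not pass the threshold, and Hba-a2 was too low to be tested. Hbb-bt passed it without NA MP replicate 1, and Hbb-bs without NA MP replicate 4 or WT MP replicate 2. These globin genes have near-identical copies whose reads RSEM had to divide, so the values of each are uncertain. The host transcript of miR-223, Mir223hg, was not analysed here.

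**Figure D3:**
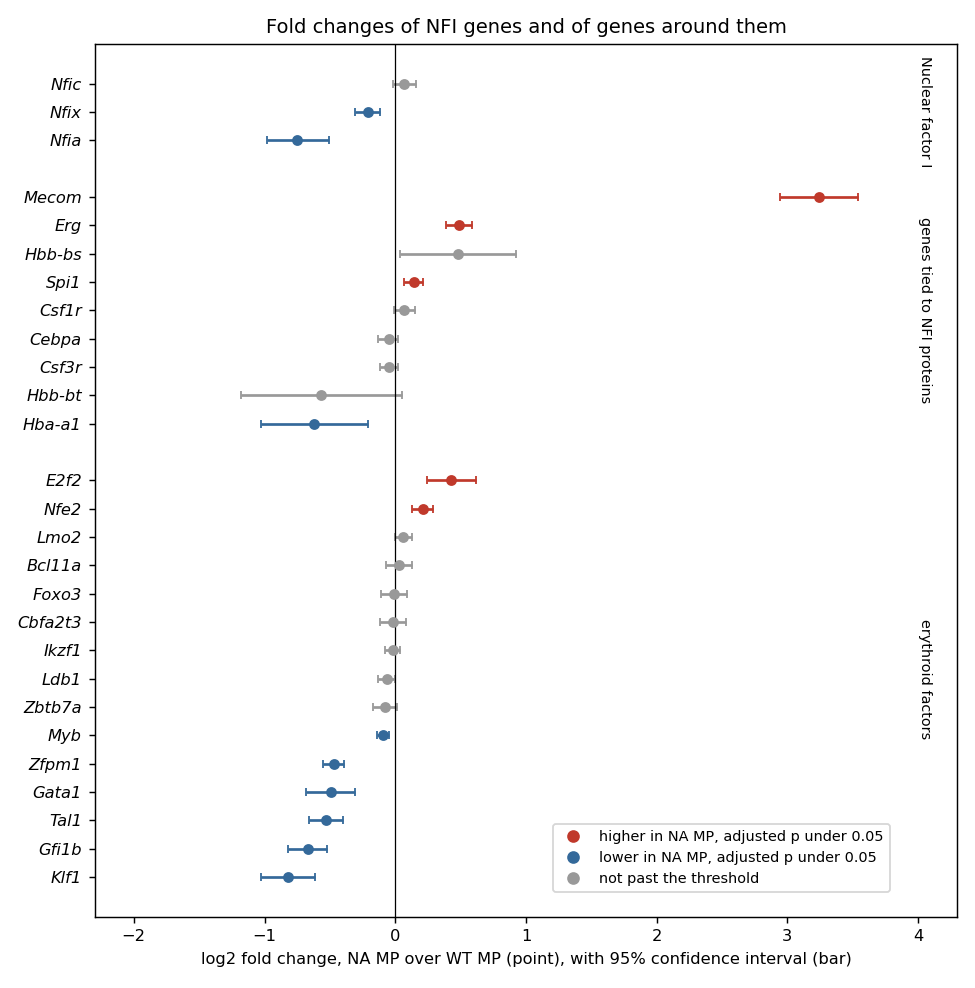
Log2 fold change of NA MPs over WT MPs (horizontal axis, points) with 95% confidence intervals (bars) for the tested nuclear factor I genes, 9 of the 10 tested genes connected with NFI proteins and the erythroid factors, in red where higher, blue where lower and grey where not past an adjusted p of 0.05. Nfia (-0.75) lies among the lowered erythroid factors Klf1 (-0.82) and Gfi1b (-0.67), and Mecom (3.24) lies farthest from 0.

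Since Nfia is known for its part in the erythroid fate, erythroid genes were set beside it. Over all tested genes, 17.3% were lower and 16.9% higher. Of 15 tested transcription factors and cofactors of erythroid cells, 6 were lower, 2 were higher and 7 were not called, and the median log2 fold change was -0.06. Klf1, the erythroid Krüppel-like factor, fell from 425 ± 47.9 to 241 ± 35.3 normalized counts (log2 fold change -0.82), close in size to Nfia. Gfi1b (-0.67), Tal1 (-0.53), Gata1 (-0.49) and its cofactor Zfpm1 (-0.47) were lower too, and Myb fell by 0.09. The 2 that were higher were E2f2 (0.43) and Nfe2 (0.21). Lmo2, Ldb1, Cbfa2t3, Bcl11a, Zbtb7a, Ikzf1 and Foxo3 lay between -0.08 and 0.06, none past the threshold, although Ldb1 and Zbtb7a, each at -0.16, did with GC content and length removed, and Lmo2, at 0.08, did without WT MP replicate 1.

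Of 19 tested genes of maturing erythroid cells, 18 were lower, 0 were higher and 1 did not pass the threshold. Their median log2 fold change was -0.98. The erythropoietin receptor Epor fell from 240 ± 14.6 to 120 ± 10.7 normalized counts (-0.99) and the spectrin gene Sptb from 315 ± 27.8 to 121 ± 36.9 (-1.43). Rhag (-1.39), Ermap (-1.37), Rhd (-1.29) and Car1 (-0.72), which encode surface proteins of red cells and a carbonic anhydrase, were lower as well. The summed normalized counts of this list ran from 8185 to 10270 in NA MPs and from 15020 to 16440 in WT MPs. The fall of Nfia thus came with a lower level of nearly the whole erythroid list, and whether fewer erythroid cells in the sorted population account for it was not tested.

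Genes of other lineages were counted in the same way, where 16.9% of all tested genes were higher and 17.3% were lower. Among granulocyte genes, 7 of 18 were higher and 2 were lower, with Cd177 (1.64) and Mmp8 (-1.09) at the ends, the granule gene Camp at 0.90, and the factors Cebpe and Gfi1 at -0.22 and -0.03, of which only Cebpe passed the threshold. With GC content and length removed, 6 were higher and 5 were lower, Gfi1 (-0.13) among the latter. Cebpe lost the threshold without NA MP replicate 1 (-0.13) or replicate 4 (-0.20). The elastase gene Elane, at 0.07, did not pass the threshold, and it passed in opposite directions without NA MP replicate 1 (0.11) and with GC content and length removed (-0.08). Among monocyte genes 7 of 12 were higher and 2 were lower, with Cd68 (0.98), Ly86 (0.40) and Ccr2 (-0.59) past the threshold and Irf8 (-0.04) and Klf4 (0.50) not. Klf4 passed it without NA MP replicate 1 (0.68). Of 10 megakaryocyte genes 2 were higher, Itga2b (0.19) and Selp (0.62), and 3 were lower, among them Vwf (-0.51) and Treml1 (-0.96), while Pf4 (-0.20) passed it only in alternatives, among them without NA MP replicate 1 (-0.25) or WT MP replicate 5 (-0.25). Itga2b (0.09) lost its call with GC content and length removed, where 1 was higher and 5 were lower. Of 7 eosinophil genes 4 were lower, among them Prg2 (-1.07, lost with a replicate block) and Ear1 (-0.97), and 1 was higher, with a median of -0.86, a fall near that of Nfia in size. The lower count was 6 with GC content and length removed. Of 9 mast cell and basophil genes 6 were higher, among them Gzmb (2.29), Cma1 (1.88), Ms4a2 (1.37) and Cpa3 (0.92). The 1 that was lower was Hdc (-0.24). The higher and lower counts were 5 and 1 with GC content and length removed.

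Markers of cells that the sort was meant to leave out were also followed. In a list of 9 markers that the sort selects against, Ly6a among them, 4 were tested, of which 2 were higher and 1 was lower. Over all tested genes, 16.9% were higher and 17.3% lower. The summed normalized counts of this list ran from 2014 to 2162 in NA MPs and from 1762 to 1845 in WT MPs. All 12 pro-B cell genes were higher in NA MPs, with a summed count of 1415 to 2485 against 373.2 to 411.5, and Ebf1 (3.52), Rag1 (3.66), Vpreb1 (3.10) and Dntt (2.23) among them. Of 7 T cell genes, 5 were at or under 3 reads in every sample, Cd3e was listed at 0, and Lck (2.16) was the only one tested. Stromal genes other than Pdgfrb (1.06) and Col1a2 (1.45) were too low to be tested, with 4 of 9 at or under 3 reads in all samples, and of 5 endothelial genes Pecam1 (0.35) was higher, Tek (-1.86) was lower and Cdh5 was near 0. Genes of these lists could enter the test through the 4 NA MP samples alone. When at least 10 normalized counts were required in every sample, 7 pro-B, 0 T cell, 1 stromal and 1 endothelial genes were called. The part of pro-B cells in the changes of Nfia and Nfix was not tested.

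**Figure D4:**
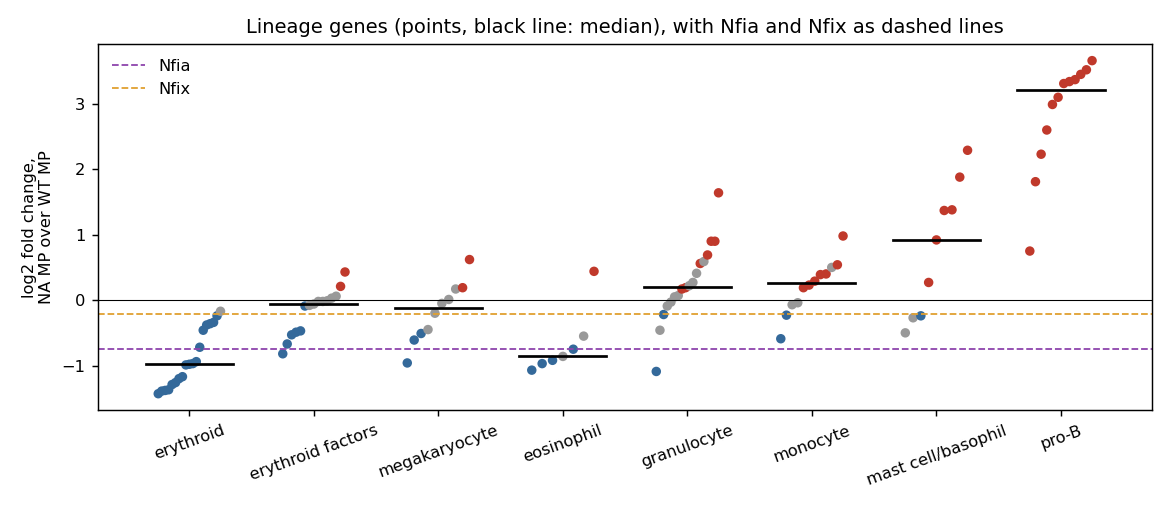
Log2 fold change of NA MPs over WT MPs (vertical axis) for tested genes of 8 lineage lists (points, red where higher, blue where lower and grey where not past an adjusted p of 0.05), with the median of each list as a black line. The dashed lines mark Nfia (-0.75) and Nfix (-0.21), which lie between 0 and the median of the erythroid list at -0.98.

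Relations within the groups were described by taking each gene's deviation from the mean of its group over the 9 samples. With only 9 samples these are descriptions. The deviations of Nfia were positively correlated with those of 18 of 19 genes of maturing erythroid cells. The median r was 0.58, beside a median of 0.02 over 11296 genes. For the 12 monocyte genes 0 correlations were positive and the median r was -0.54, and for the 18 granulocyte genes the median was -0.26. Nfix showed a median r of 0.38 with the genes of maturing erythroid cells and Nfic one of -0.14. Correlations of Nfia with the erythroid factors were positive for 10 of 15. With these factors the median r was 0.19 for Nfia, 0.34 for Nfix and 0.13 for Nfic. Between Nfia and Nfix, r was 0.85 over all 9 samples, which fall into 2 groups, and 0.03 for the deviations, so no shared variation was seen within the groups. The samples share library preparation and depth differences, and no p-value is attached to these correlations.

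The genes most like each member were found by Pearson's r of log2 CPM over the 9 samples, among 11296 other genes. For Nfia they included Cyth3 (r = 0.985, and 0.92 for deviations within groups) and Golph3 (0.980 and 0.86). Cyth3 fell from 349 ± 28.5 to 224 ± 32.6 normalized counts. For Nfix they were Rnf217 (0.983 and 0.90), the gap junction gene Gja1 (0.981 and 0.87) and Plekha5 (0.981 and 0.93), which were lower in NA MPs by larger amounts than Nfix, with log2 fold changes of -2.05, -0.83 and -0.45. For Nfic they were Traf3 (0.980 and 0.98), Raver1 (0.940 and 0.93) and Itih5 (0.902 and 0.91), none of which passed the threshold. For Nfia and Nfix, the likeness over 9 samples includes the difference between the groups, while that of Nfic lies mostly within them. Deviations within groups were also much alike for the genes named with each member (0.86 to 0.98). These genes were picked as the top of 11296 on the same samples, so high values were selected.

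**Figure D5:**
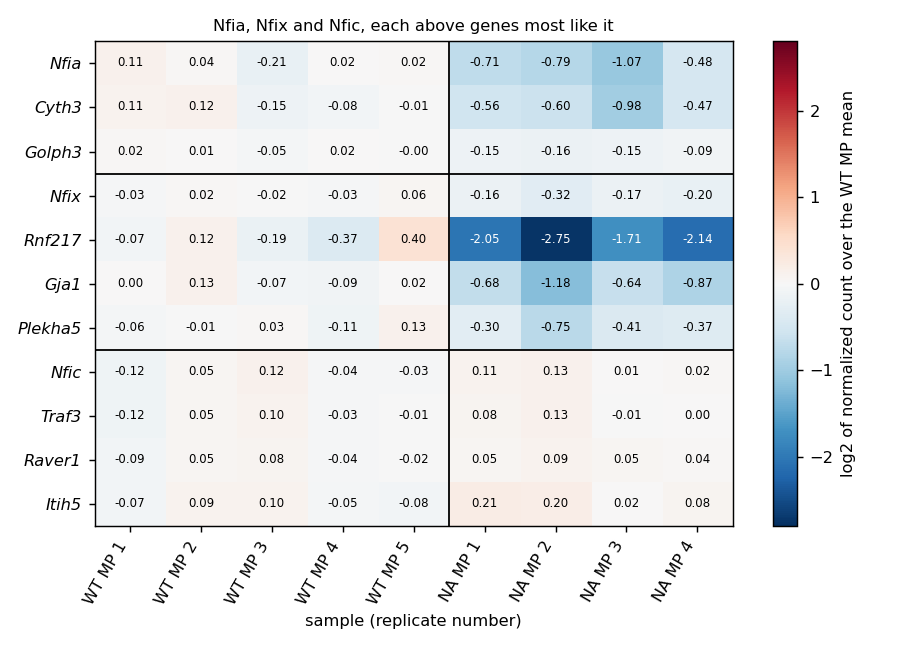
Log2 of the normalized count over the WT MP mean (colour and printed number, red above and blue below the mean) for Nfia, Nfix and Nfic, each above genes most like it (2 for Nfia, 3 for the others), in 5 WT MP and 4 NA MP samples. Nfia ranges from -1.07 to -0.48 in NA MPs and from -0.21 to 0.11 in WT MPs, while the rows of Nfic hold values on both sides of 0 in WT MPs.

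Genes within 100 kb of a member were listed to see whether neighbours changed with it. Of 51 annotated genes 35 were matched by symbol and had any count. Of these 28 were tested, 7 were higher and 1 was lower, where 16.9% and 17.3% of all tested genes were. With GC content and length removed, 5 were higher and 8 lower, so the direction of the neighbours depends on this setting. Around Nfix, 4 of 13 tested neighbours were higher and 0 were lower, against 3 and 3 with GC content and length removed. The 4 were the immediate early gene Ier2 (1.32), the calcium channel gene Cacna1a (0.53), the stem cell factor Lyl1 (0.17) and Farsa (0.10). Lyl1 and Nfix overlap by 4 exonic bases on opposite strands, and with GC content and length removed Lyl1 was at 0.00. Farsa lost the threshold without NA MP replicate 3, WT MP replicate 2 or WT MP replicate 3. Nfix also overlaps G430095P16Rik by 137 exonic bases on the opposite strand, so part of its count is uncertain if strand was not used, but that gene had only 44.4 ± 5.27 normalized counts in NA MPs and 34.9 ± 2.77 in WT MPs. Around Nfic, 3 of 14 were higher, the thromboxane receptor gene Tbxa2r (1.09), Smim24 (0.40) and Pip5k1c (0.12), and 0 were lower. With GC content and length removed, 2 were higher and 5 lower, and Pip5k1c was at 0.02. Near Nfib the only gene tested was Zdhhc21 (-0.17), which lost the threshold without NA MP replicate 2 (-0.12) and with GC content and length removed (-0.09). Near Nfia no gene was tested, and only 1 of its 3 annotated neighbours was matched by symbol with any count.

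To show where miR-223 could pair with members of the family, the seed of miR-223-3p (bases 2 to 8, in capitals) was searched in the longest transcript of each gene. The mature sequence is from RefSeq (GRCm38.p6), and in the matching transcript sites below, from GENCODE, capitals mark the bases complementary to the seed.
miR-223-3p: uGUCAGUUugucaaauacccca
Nfia, chr4:98112124-98112145, plus strand: gtctgttttgacagaAACTGAC
Nfib, chr4:82296390-82296411, minus strand: atgacaatatattttAACTGAC

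The match in Nfia begins at base 2794 of the 9526 bases of transcript Nfia-202, whose coding part ends at base 1887. In Nfib it begins at base 2893 of 9116, after a coding end at base 2492. These letters did not occur in the longest transcripts of Nfic and Nfix. A match is a description and says nothing about use of the site in these cells.

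The NFI palindrome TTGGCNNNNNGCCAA, searched on both strands in windows from 250 bases before to 50 after gene starts (RefSeq, GRCm38.p6), occurred in 12 of 32851 promoters (0.0365%) and in 0 promoters of the members, the genes connected with NFI proteins, the erythroid lists and the granulocyte list. A lone arm of it, TTGGC or GCCAA, occurred in 46.7% of all promoters. It was in 3 of 6 promoters of the members (50%), 10 of 11 of the genes connected with NFI proteins (90.9%), 11 of 19 of the erythroid factors (57.9%), 8 of 15 of the maturing erythroid genes (53.3%) and 10 of 18 of the granulocyte genes (55.6%). The 3 promoters of members with a lone arm were all of Nfix. The 6 promoters of members belonged to 3 genes, and Nfib had none. The only Nfia window, chr4:97581693-97581992, lay outside the GENCODE span of Nfia given above, whose start was not searched. The 11 promoters of genes connected with NFI proteins belonged to 8 genes, with several of Erg and Mecom and related globin genes among them. No test was made of these shares.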

How the data were processed

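RNA of 4 NA MP and 5 WT MP samples was sequenced from TruSeq libraries. The authors' processing notes name bcl2fastq, RSEM, DESeq2 and mm10; versions, annotation and strand setting are not given in the sources used here. The deposited signal values are read counts per gene estimated by RSEM and, as their steps show, already divided by a size factor per sample, although the file presents them as counts without scaling. With the step of each sample, 97.6% to 98.0% of values above 0 came out as whole reads (within 0.05), against 7.71% to 45.4% as deposited. The count test planned was therefore replaced by limma on a log scale, a change made after the data had been seen. Count models had been fitted before it and are not reported.

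In R 4.3.3, limma 3.58.1 (trend and robust options) was applied to log2(value + 1) of genes with at least 10 normalized counts in at least 4 samples, with Benjamini-Hochberg adjustment over 11987 genes and a threshold of 0.05. The method was run on simulated data in which few genes changed, each by more than Nfix did here. That run therefore says nothing about changes as small as that of Nfix. No 2 samples of a group were alike within counting noise (chi-square over its degrees of freedom, 1.2 to 2.82). For single values, exact permutation tests, two-sided, used all 126 arrangements (scipy 1.17.1). Differences between members and likeness used log2 CPM from the deposited totals with 2 counts added, without the TMM scaling planned, and likeness was sought among genes with a mean log2 CPM of at least 1. Of 6 planned pairs of members, 3 were compared, as Nfib was too low. Confidence intervals come from the limma fit and measure the spread between these samples. Floors of reads cover counting error only.

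Named are the 4 members, Hoxa10 and Nup98, preset leading genes of each list and the 2 most changed, all genes connected with NFI proteins, the 3 genes most like each tested member and neighbours within 100 kb. Others named in the lists were chosen after their values were seen. Some genes that this rule names are counted in their lists but not reported here. Members and lists were chosen with earlier results of these data known. Gene symbols matched 32916 of 37980 identifiers. Alternatives were other scalings, filters, thresholds and pseudocounts, no robust option, removal of GC content and length, a replicate block and leaving out each sample. The pseudocount of 0.5 was added after the data had been seen.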

Additional observations from a re-analysis of the deposited data

Results flagged for a closer look

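Values far from the other samples of their group were sought in 118 groups of normalized counts, differences and shares, of which 10 had one, while chance gives about 1 in 20, or 5.9. None was a value of a nuclear factor I gene. In NA MP replicate 1, Mecom (178.9 against 152.5 to 156.7), Tal1 (585.8 against 451.3 to 461.0) and Gzmb (381.7 against 271.0 to 274.4) were high and Itgam (419.0 against 529.8 to 548.9) was low. In NA MP replicate 2, Cebpa was high (1442 against 1299 to 1315) and Ly6a low (17.19 against 22.27 to 23.14). Golph3 was high in NA MP replicate 4 (657.9 against 627.9 to 632.6). Among WT MPs, Camp was low in replicate 1 (109.0 against 160.0 to 175.1), Vwf high in replicate 2 (262.7 against 221.1 to 229.9) and Ebf1 high in replicate 4 (16.01 against 7.938 to 10.25).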

How the results depend on the processing

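Nfia stayed lower and past the threshold in every alternative tried, from -0.76 to -0.68 on the log2 scale, and from -0.84 to -0.65 with each sample left out. Nfix did so from -0.28 to -0.20, and from -0.23 to -0.18. Nfic turned to -0.01 (adjusted p = 0.874 from limma) with GC content and length removed, and lay between 0.04 and 0.10 with each sample left out. The 3 differences between members kept their direction, with exact permutation p-values up to 0.0357 on fewer samples. Elane (0.07 to -0.08) and Ncln (0.04 to -0.09) also reversed with GC content and length removed. The number of genes past the threshold over all tested genes ranged from 3625 to 3937 with each sample left out. It was 2857 at an adjusted p under 0.01.

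With at least 10 normalized counts required in every sample, fewer genes were tested, and 3 eosinophil, 7 pro-B, 0 T cell, 1 stromal and 1 endothelial genes were called. At an adjusted p under 0.01, 5 granulocyte and 3 eosinophil genes were called. With each sample left out, 3 to 7 eosinophil genes (3 without NA MP replicate 3) and 5 to 8 myeloid progenitor genes (8 without NA MP replicate 1, against 5 with all samples) were called, and the cause was not tested. With the longest transcript as length, the share of the family was 56.8% in NA MPs and 51.2% in WT MPs for Nfic and 40.4% and 44.3% for Nfix.

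Replicate numbers 1 to 4 occur in both groups. The deviations of same-numbered samples correlated at 0.006, 0.003, -0.02 and 0.057, so little shared variation was seen between them. Whether they were handled together is not given in the labels and cannot be told from these values. With a replicate block the log2 fold change was -0.74 for Nfia, -0.20 for Nfix and 0.06 for Nfic, and 3693 genes were called. Results of a count model and of rounding are not reported, since the values are already scaled.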
